A study of Mus musculus with 15 samples.

Results

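The immediate early genes examined here were Fos, Fosb, Jun, Junb, Jund, Egr1, Ier2, Btg2, Klf6 and Dusp1, found by symbol in a table of 31298 genes. All 10 were present and all 10 passed the filter on low values, which left 27994 genes to test. RNA sequencing had been done on hematopoietic stem cells (HSCs) from the bone marrow of hCD34-tTA x TetO-H2BGFP mice, in which a transactivator under human CD34 regulatory sequence drives H2BGFP, a histone H2B joined to green fluorescent protein. All mice received doxycycline, which stops production of the label, so that cell division dilutes it. HSCs were gated as LSK (lineage-negative, Sca1-positive, c-Kit-positive), CD48-, Flk2- and CD150+ and were divided by remaining label into GFP4, GFP3, GFP2 and GFP1. Total is the same gate without that division.

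There were 3 libraries per group and 15 in total. Replicate I came from mice aged 5 months after 12 weeks of doxycycline, replicate II from mice aged 5.5 months after 14 weeks, and replicate III from mice aged 6.5 months after 16 weeks, in every group. The labels give neither the sex of the mice nor whether a library was 1 mouse or a pool, nor whether libraries of one number share mice, and p-values therefore speak only of the spread among the libraries. The bin number is read here as rising with the label, which the labels do not spell out. Values are log2 expression as deposited, brought to one distribution across libraries, so depth is unknown, and levels are not compared between genes because their scaling by transcript length is unknown. In bulk RNA, fewer cells of a type and less RNA per cell cannot be told apart.

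Immediate early genes are transcribed within minutes of a stimulus from factors already in the cell, and their transcripts are short-lived. Fos and Jun family proteins pair to form the transcription factor AP-1, Egr1 and Klf6 are zinc finger transcription factors, and Dusp1, Btg2 and Ier2 act in feedback and growth control. In blood stem cells of mice, Egr1 is known for holding cells in quiescence and in the niche. The same genes are also known to respond to dissociation of tissue and to sorting. Here the marrow was crushed, depleted on magnetic beads, stained and sorted before lysis; how long each library spent in these steps is not stated in the labels.

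The promoters of 8 members are in the RefSeq promoter table of GRCm38.p6, each from 250 bases before to 50 bases after the start of the gene, and 4 are shown: Fos, which varied most between replicates, Junb of the other AP-1 family, and Btg2 and Klf6, which moved in opposite directions across the bins. Capitals mark, on either strand, the core of a cyclic AMP response element, TGACG, together with the TATA sequence, written TATAA, and the CCAAT box. The windows are chr12:85473640-85473939 on the plus strand for Fos, chr8:84978699-84978998 on the minus strand for Junb, chr1:134079106-134079405 on the minus strand for Btg2 and chr13:5861239-5861538 on the plus strand for Klf6, each written 5′ to 3′ along the gene.
Fos: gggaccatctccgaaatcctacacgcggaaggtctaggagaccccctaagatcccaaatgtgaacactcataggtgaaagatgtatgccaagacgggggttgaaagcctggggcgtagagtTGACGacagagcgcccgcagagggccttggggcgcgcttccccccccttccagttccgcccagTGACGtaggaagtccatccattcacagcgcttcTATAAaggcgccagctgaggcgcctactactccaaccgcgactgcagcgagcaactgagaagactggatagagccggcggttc
Junb: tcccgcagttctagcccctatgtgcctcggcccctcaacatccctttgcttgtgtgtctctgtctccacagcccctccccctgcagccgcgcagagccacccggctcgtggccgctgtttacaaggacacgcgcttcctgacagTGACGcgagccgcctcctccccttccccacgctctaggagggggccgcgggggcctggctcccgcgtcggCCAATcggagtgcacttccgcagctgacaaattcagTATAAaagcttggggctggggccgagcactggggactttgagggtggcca
Btg2: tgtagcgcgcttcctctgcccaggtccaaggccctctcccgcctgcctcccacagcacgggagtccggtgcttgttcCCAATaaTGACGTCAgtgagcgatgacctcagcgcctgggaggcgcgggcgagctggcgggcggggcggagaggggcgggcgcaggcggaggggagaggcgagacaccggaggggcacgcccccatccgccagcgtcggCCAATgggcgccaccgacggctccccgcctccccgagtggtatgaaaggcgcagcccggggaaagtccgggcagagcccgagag
Klf6: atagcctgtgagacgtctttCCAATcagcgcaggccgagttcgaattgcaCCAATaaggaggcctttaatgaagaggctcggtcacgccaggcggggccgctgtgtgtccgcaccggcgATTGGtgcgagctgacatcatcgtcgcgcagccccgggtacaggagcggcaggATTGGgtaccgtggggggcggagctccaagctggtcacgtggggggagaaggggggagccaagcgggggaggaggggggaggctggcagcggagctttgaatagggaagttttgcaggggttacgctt

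Searched on both strands, the TGACG core was in 5 of the 8 windows, those of Fos, Fosb, Junb, Btg2 and Dusp1, against 20.8% of all 32851 windows of the same length. The full element TGACGTCA, which contains that core, was in the windows of Btg2 and Dusp1, against 1.79% of all windows. TATAA was in 2 of 8, Fos and Junb, against 24.9%, and CCAAT was in 4 of 8, Jun, Junb, Btg2 and Klf6, against 37.4%. The TATAA of Fos began 33 bases before the start of the gene, whereas that of Junb began at the annotated start itself. The AP-1 site TGANTCA was in 7.81% of all windows and the CArG box, which serum response factor binds, was in 1.63%. Neither sequence was in the 8 windows, and sequence further from the starts was not searched. These matches are descriptions of the letters, and the genes that share one did not all move the same way below.

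Before the bins can be compared, 5 libraries have to be set apart. Ddx3y, a gene of the Y chromosome, lay between 1.59 and 3.92 in GFP4 replicate II, GFP3 replicate I, GFP2 replicate I, GFP1 replicate I and Total replicate I, and between 10.93 and 11.93 in the other 10 libraries. Eif2s3y, also on the Y chromosome, lay between 0.14 and 4.22 in the same 5 libraries and between 11.02 and 11.86 in the others. The other 2 Y-linked genes read were not near absent in the 5: Uty lay between 6.74 and 7.57 there, against 10.19 to 11.50 elsewhere, and Kdm5d between 9.21 and 10.60, against 10.77 to 11.80 elsewhere. The 5 include 1 library of each group, and replicate I in every group other than GFP4. Of the tested genes, 10337 averaged 10 ppm or more of a library's summed linear values. Across these, the deviations of 13 of 15 libraries from their group mean were most like those of libraries with their own replicate number. The exceptions were the library labelled GFP4 replicate I, which was most like the replicate II libraries of other groups, and the library labelled GFP4 replicate II, which was most like the replicate I libraries. The labels were kept as given, and the split by Ddx3y was noticed in these data.

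Of the AP-1 genes, Fos, Jun and Jund had all 5 of their lowest values in the 5 libraries with little Ddx3y. Junb had 4 of its 5 lowest there and Fosb 3. Fos, the partner of Jun proteins in AP-1 (chromosome 12, 85473890 to 85477274 in GRCm38.p6), was 10.95, 9.95 and 11.88 in GFP4 (replicates I, II and III), 9.92, 11.43 and 12.19 in GFP3, 9.87, 11.47 and 12.10 in GFP2, 10.48, 11.49 and 11.90 in GFP1, and 10.39, 10.98 and 11.81 in Total. The 5 libraries with little Ddx3y were the 5 lowest of all 15, from 9.87 to 10.48, against 10.95 to 12.19 in the rest, while the bins overlapped throughout. Jun (chromosome 4, 95049036 to 95052222) was 13.41, 12.52 and 13.92 in GFP4, 12.15, 13.55 and 13.67 in GFP3, 11.78, 13.42 and 13.62 in GFP2, 11.99, 13.32 and 13.62 in GFP1, and 12.22, 12.80 and 13.54 in Total. Its 5 lowest values were again in the libraries with little Ddx3y, from 11.78 to 12.52, against 12.80 to 13.92 elsewhere. Jund, a Jun protein usually expressed at a steadier level (chromosome 8, 70697739 to 70700616), did the same, with 10.75 to 11.18 in those 5 libraries and 11.33 to 11.93 in the other 10.

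**Figure D1:**
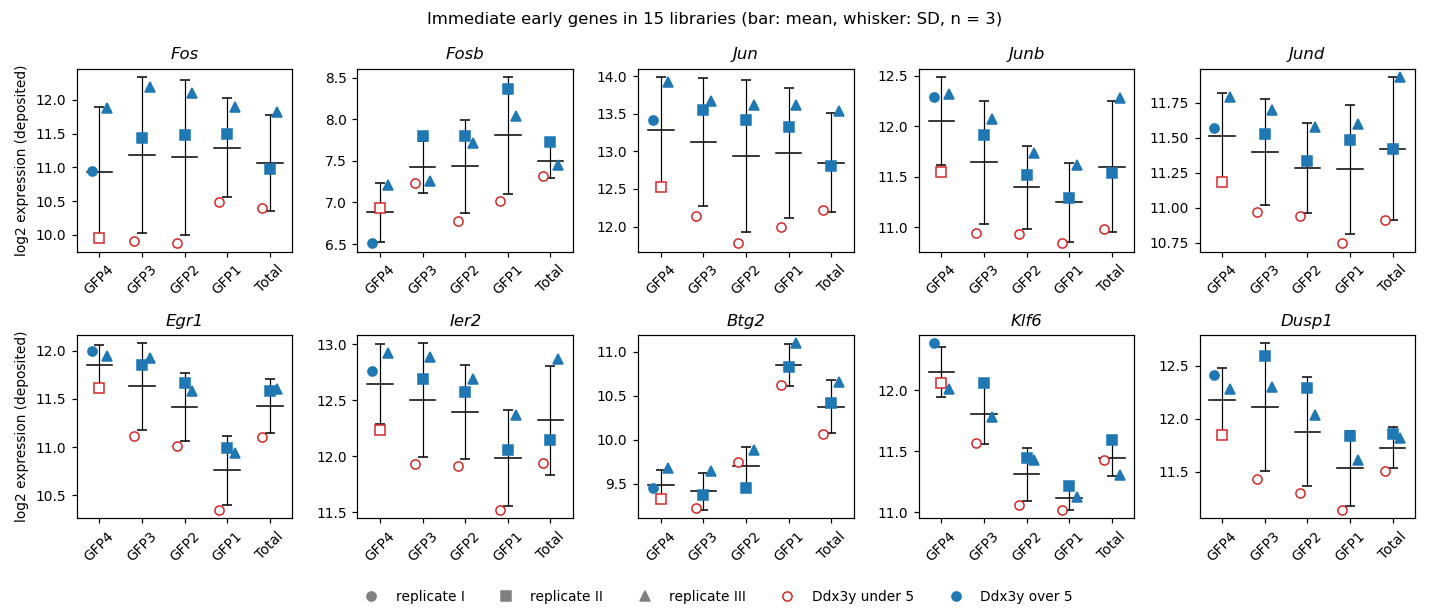
Deposited log2 expression (y axis) of the 10 immediate early genes in GFP4, GFP3, GFP2, GFP1 and Total (x axis); points are libraries, shapes are replicate numbers, bars are group means and whiskers SD (n = 3), and open red symbols are the 5 libraries with Ddx3y under 5. Fos, Jun and Jund had their 5 lowest values in the open symbols, whereas Btg2 and Klf6 were ordered mainly by group.

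Within each group, 7 of the 10 members were lower in the library with little Ddx3y than in both others, in all 5 groups: Fos, Jun, Junb, Jund, Egr1, Ier2 and Dusp1. Of the 10337 genes that averaged 10 ppm or more, 365 showed this, which is 3.53%. The library with little Ddx3y was set against the mean of the other 2 of its group. The difference was -1.5 ± 0.405 for Fos and -1.36 ± 0.31 for Jun on the log2 scale (mean ± SD over 5 groups). For Junb it was -0.81 ± 0.177, for Ier2 -0.69 ± 0.114, for Dusp1 -0.66 ± 0.274, for Jund -0.64 ± 0.137 and for Egr1 -0.57 ± 0.156. Klf6 differed least, by -0.21 ± 0.152, and was below both others in 3 of 5 groups; Btg2 and Fosb were so in 4 of 5. These values are descriptions without a test, since the split was made after the data had been seen; comparisons of bins that take it into account are given further on.

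**Figure D2:**
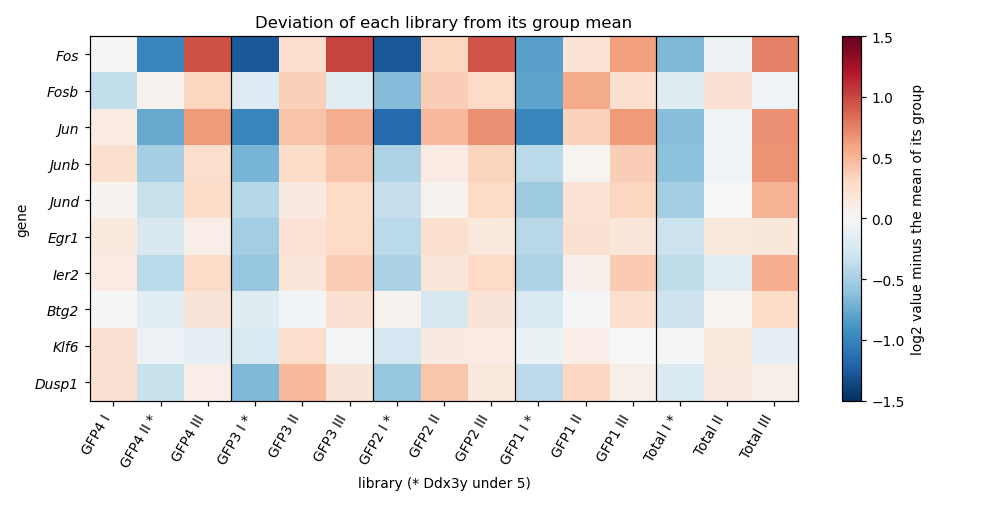
Deviation of each library (x axis, 5 groups of 3) from the mean of its group for the 10 genes (y axis), as a colour scale of log2 differences; an asterisk marks a library with Ddx3y under 5. The 5 marked columns are blue for nearly all genes, and the mean deviation over the 10 genes was -0.38 in GFP4 replicate II, -0.57 in GFP3 replicate I, -0.56 in GFP2 replicate I, -0.51 in GFP1 replicate I and -0.39 in Total replicate I.

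Other transcripts moved with these libraries too. Summed over 8 macrophage markers, the log2 level was 11.92 to 13.33 in the 5 libraries with little Ddx3y, 14.06 to 15.64 in the other libraries numbered I or II, and 12.24 to 13.98 in those numbered III. Within each of the 5 groups, the library with little Ddx3y had the lowest such sum, as it had the lowest Fos. The sum there was 12.15 in GFP4, 13.33 in GFP3, 13.27 in GFP2, 11.92 in GFP1 and 12.54 in Total. The single marker Csf1r was not lowest there in GFP4, GFP2 and GFP1. Csf1r lay between 8.83 and 10.36 in the 5 libraries with little Ddx3y and between 9.03 and 10.11 in the replicate III libraries. Fos lay between 9.87 and 10.48 in the first set and between 11.81 and 12.19 in the second. In the other libraries numbered I or II, Csf1r lay between 11.17 and 11.94 and Fos between 10.95 and 11.49, both wholly above the libraries with little Ddx3y, and the part of these cells in the Fos values was not tested. Of the macrophage markers, 5 of 8 were below both others in all 5 groups (Adgre1, Cd68, C1qa, C1qb and C1qc), as were 3 of 8 neutrophil markers (S100a8, S100a9 and Camp) and 2 of 11 HSC markers (Procr and Fgd5). The summed neutrophil markers were 15.82 to 17.04 in the libraries with little Ddx3y, 16.82 to 17.88 in the others numbered I or II and 16.83 to 17.54 in those numbered III. The summed HSC markers overlapped, with 16.93 to 17.88 in the first set, 16.89 to 17.71 in the second and 16.93 to 17.69 in the third. Gapdh lay between 14.79 and 15.02 in the first set and between 14.73 and 15.17 in the other 10 libraries.

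**Figure D3:**
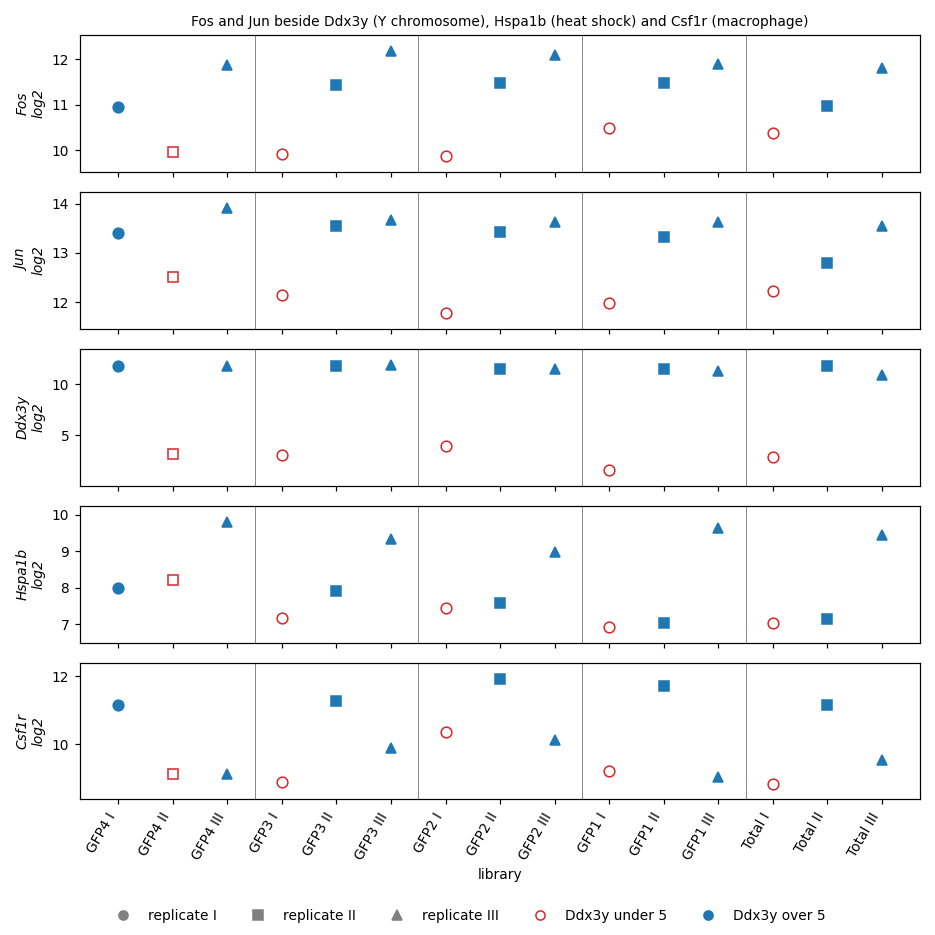
Deposited log2 values (y axes) of Fos, Jun, Ddx3y, the heat shock gene Hspa1b and the macrophage marker Csf1r in the 15 libraries (x axis); shapes are replicate numbers and open red symbols have Ddx3y under 5. Fos and Jun are lowest in the open symbols, Hspa1b is highest in replicate III (8.99 to 9.81), and Csf1r is highest in the filled circle and squares (11.17 to 11.94).

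The spread between replicates was wide for genes at these levels. The pooled within-group SD had a median of 0.431 over the 10 members, against 0.154 over the 10337 genes that averaged 10 ppm or more and 0.568 over all genes tested, many of which are near the lowest values. Fos had an SD of 0.963, at percentile 98.4 of the genes of at least 10 ppm, and Jun 0.828, at percentile 97.9. Junb (0.512), Ier2 (0.443), Dusp1 (0.419), Jund (0.404) and Egr1 (0.341) lay between percentiles 91.6 and 95.4. Fosb had an SD of 0.464, but its mean of 4.9 ppm is under that level. Btg2 (0.231, percentile 79.7) and Klf6 (0.191, percentile 67.9) varied least, and these were the 2 genes with the clearest differences between bins. The replicate number accounted for a median of 68.9% of the within-group variation of the members and 28.1% of that of the genes of 10 ppm or more; without the GFP4 libraries the medians were 91.9% and 37.1%. The median SD of the members was 0.252 without the replicate I libraries, and 0.198 once the indicator of little Ddx3y described below was a covariate.

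The comparison of GFP1 with GFP4 sets the cells with the least label against those with the most. By limma with Benjamini-Hochberg adjustment over all 27994 genes at 0.05, 1 of the 10 members rose and 2 fell, where 9.27% of all genes were higher and 10.3% lower. Btg2, an antiproliferative factor that also binds the mRNA deadenylation machinery, rose, and Klf6 and Egr1 fell. The median difference over the 10 members was -0.48, against -0.07 over all genes tested. A share of 1 in 10 higher is near the background, so the account rests on the single genes.

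Btg2 (chromosome 1, 134074865 to 134079155) was 9.46, 9.33 and 9.67 in GFP4, 9.23, 9.37 and 9.64 in GFP3, 9.75, 9.46 and 9.89 in GFP2, 10.62, 10.83 and 11.09 in GFP1, and 10.06, 10.42 and 10.65 in Total. The GFP1 libraries were above every GFP4, GFP3 and GFP2 library, and GFP4, GFP3 and GFP2 overlapped. Btg2 was 2.57-fold higher in GFP1 than in GFP4 (log2 difference 1.36, SE 0.17, limma adjusted p = 7.26e-06), and the difference lay between 1.24 and 1.48 when libraries were left out. The step from GFP2 to GFP1 held most of it: Btg2 was higher in GFP1 than in GFP2 by 1.15 (SE 0.17, limma adjusted p = 0.000287), whereas GFP2 less GFP4 was 0.21 (SE 0.17, limma adjusted p = 0.688). The GFP1 and Total libraries, which were the high ones for Btg2, also held 4.34% to 5.5% of their summed linear values in immunoglobulin genes, against 0.0073% to 0.0737% in GFP2, GFP3 and GFP4. The 8 plasma cell markers summed to 19.31 to 19.57 in GFP1 and Total and to 12.90 to 14.31 in the other 9 libraries. B cell markers summed to 12.83 to 13.74 and 11.44 to 12.31 in the same sets, and all 8 plasma cell and 6 of 8 B cell markers were higher in GFP1 than in GFP4. T and NK cell markers summed to 11.77 to 12.90 in GFP1 and Total and to 10.88 to 11.45 in the others, with 3 of 9 higher and 1 lower in GFP1 than in GFP4. Mast cell and basophil markers summed to 10.63 to 11.65 and to 6.03 to 10.04 in the same sets, with 2 of 4 higher. The part of these cells in the Btg2 values was not tested.

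Klf6 (chromosome 13, 5861489 to 5870393), a tumour suppressor of the Krüppel-like family, was 12.39, 12.06 and 12.01 in GFP4, 11.57, 12.06 and 11.78 in GFP3, 11.06, 11.44 and 11.43 in GFP2, 11.02, 11.22 and 11.12 in GFP1, and 11.43, 11.60 and 11.30 in Total. Its mean was lower at every step of the bins, and all GFP2 and GFP1 libraries were below all GFP4 libraries. Klf6 was 2.05-fold lower in GFP1 than in GFP4 (log2 difference -1.03, SE 0.14, limma adjusted p = 1.39e-05). Unlike Btg2, it had already fallen in GFP2 against GFP4, by 0.84 (SE 0.14, limma adjusted p = 0.00113). GFP1 less GFP2 was -0.19 (SE 0.14, limma adjusted p = 0.54). The call of GFP2 against GFP4 was lost without all replicate I libraries, where the difference was -0.60 (limma adjusted p = 0.0633).

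Egr1 was 12.00, 11.61 and 11.95 in GFP4, 11.11, 11.85 and 11.93 in GFP3, 11.01, 11.66 and 11.58 in GFP2, 10.35, 10.99 and 10.94 in GFP1, and 11.10, 11.58 and 11.60 in Total. All 3 GFP1 libraries were below every other library in the study. Egr1 was 2.13-fold lower in GFP1 than in GFP4 (log2 difference -1.09, SE 0.26, limma adjusted p = 0.00827). GFP1 less GFP2 was -0.66 (SE 0.26, limma adjusted p = 0.179) and GFP1 less Total -0.67 (SE 0.26, limma adjusted p = 0.305); in both cases the GFP1 libraries lay wholly below the others, as they did for 14.6% and 8.66% of all genes tested. Neither difference was called, but both were once the Ddx3y indicator described below was a covariate (limma adjusted p = 0.000104 against GFP2 and 0.000327 against Total). That covariate was chosen after the data had been seen, so these 2 calls are descriptions. Without all replicate III libraries the call of GFP1 against GFP4 was lost, at -1.14 (limma adjusted p = 0.124).

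The other 7 members were not called between GFP1 and GFP4. Fosb, a Fos protein with a role in AP-1 like that of Fos (chromosome 7, 19302696 to 19310118), was 7.02, 8.36 and 8.04 in GFP1, against 6.51, 6.93 and 7.21 in GFP4. The ranges overlapped and the difference was 0.93 (SE 0.34, limma adjusted p = 0.0611). Junb (chromosome 8, 84976909 to 84978748), which can restrain Jun, was 10.84, 11.28 and 11.62 in GFP1, against 12.29, 11.55 and 12.32 in GFP4, a difference of -0.81 (SE 0.41, limma adjusted p = 0.247). Dusp1, a phosphatase that switches off MAP kinases (chromosome 17, 26505591 to 26508472), was 11.14, 11.84 and 11.61 in GFP1 and 12.41, 11.84 and 12.28 in GFP4, a difference of -0.65 (SE 0.33, limma adjusted p = 0.247). Its groups did not overlap, by a narrow margin. Ier2, a nuclear protein induced by growth factors (chromosome 8, 84661331 to 84662852), differed by -0.66 (SE 0.35, limma adjusted p = 0.277), Jund by -0.24 (SE 0.32, limma adjusted p = 0.735), Jun by -0.31 (SE 0.67, limma adjusted p = 0.853) and Fos by 0.36 (SE 0.78, limma adjusted p = 0.851). The standard errors of Fos and Jun exceeded their differences, so a difference of that size was not detectable.

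Non-overlap of GFP1 and GFP4 was found for Btg2 above and for Egr1, Klf6 and Dusp1 below, where 15.1% of all genes tested were above and 17.6% below. HSC markers moved in this comparison as well: 8 of 11 were lower in GFP1, their sum was 16.89 to 16.93 in GFP1 and 17.65 to 17.88 in GFP4, and their part in the lower Egr1 and Klf6 values was not tested. Of the sorted-out markers Cd48 and Flt3, 1 was higher and 1 lower. Of 8 macrophage and 8 neutrophil markers none was called either way. None had an unadjusted p under 0.05, which 7804 of all 27994 genes tested had. The median differences were 0.16 for macrophage and -0.09 for neutrophil markers. Standard errors were wide, from 0.75 (Cd68) to 1.18 (C1qa) and from 0.47 (Ly6g) to 0.62 (Elane). The largest difference among these markers was Mpo at 1.19 (SE 0.59). The lack of calls therefore does not show equal levels in GFP1 and GFP4.

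A linear contrast over the 4 bins called the same 3 genes. Btg2 rose by 0.44 per bin towards GFP1 (SE 0.05, limma adjusted p = 5.86e-06), Klf6 fell by 0.36 (SE 0.04, limma adjusted p = 4.28e-06) and Egr1 fell by 0.35 (SE 0.08, limma adjusted p = 0.00757), where 9.6% of all genes were called higher and 10.5% lower. The Egr1 trend lost its call without all replicate III libraries (limma adjusted p = 0.123). Between GFP2 and GFP4, Klf6 was the 1 member called, where 2.69% of all genes were higher and 1.67% lower. Between GFP1 and GFP2, Btg2 was the 1 member called, where 3.06% were higher and 4.1% lower.

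Against the undivided sort, GFP4 had more Klf6 and less Btg2. Klf6 was higher in GFP4 than in Total by 0.71 (SE 0.14, limma adjusted p = 0.00185), and Btg2 differed by -0.89 (SE 0.17, limma adjusted p = 0.00179), where 4.7% of all genes were higher and 5.29% lower. The Klf6 call was lost without all replicate III libraries (limma adjusted p = 0.0558) and the Btg2 call without all replicate II libraries (limma adjusted p = 0.0667). In GFP1 against Total limma called no member, where 0.318% of all genes were higher and 1.41% lower. There, 3 members had an unadjusted p under 0.05, as had 3317 of all 27994 genes tested. They were Btg2 at 0.47 (SE 0.17), Egr1 at -0.67 and Klf6 at -0.32 (SE 0.14). These comparisons share groups, so their values are not independent. In the order of group means, neighbours overlapped for 7 of the 10 genes at every step. The exceptions were Fosb, where GFP3 (7.43 ± 0.31) was above GFP4 (6.88 ± 0.35), Egr1, where GFP1 (10.76 ± 0.36) was below GFP2 (11.42 ± 0.36), and Btg2, where GFP2 (9.70 ± 0.22) was below Total (10.38 ± 0.30), each SD with n = 3.

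The bins were also compared with the Ddx3y split taken into account, in 2 alternatives chosen after the data had been seen. Members themselves follow that split, as Fos, Jun and Jund had their 5 lowest values in the libraries with little Ddx3y. The smaller standard errors and the added calls are therefore descriptions and not independent evidence. With an indicator of Ddx3y under 5 as a covariate, 2 members were higher in GFP1 than in GFP4 and 5 were lower, where 10.1% and 11.3% of all genes were called. The differences stayed as above, since each group holds 1 such library, but their standard errors were smaller, at 0.09 for Egr1, 0.15 for Junb, 0.14 for Ier2, 0.13 for Dusp1 and 0.28 for Fosb. The added calls were Fosb (limma adjusted p = 0.0218), Junb (0.000751), Ier2 (0.00236) and Dusp1 (0.000745). In the 10 libraries with Ddx3y over 5, 2 were higher and 4 lower, where 6.83% and 7.19% of all genes were called: Fosb at 1.35 (SE 0.31, limma adjusted p = 0.00859), Btg2 at 1.40, Junb at -0.85 (SE 0.21, limma adjusted p = 0.0156), Dusp1 at -0.62 (SE 0.14, limma adjusted p = 0.00649), Egr1 at -1.01 and Klf6 at -1.03. Ier2 was not called there, at -0.63 (SE 0.21, limma adjusted p = 0.0725). Fos, Jun and Jund were not called in either alternative.

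**Figure D4:**
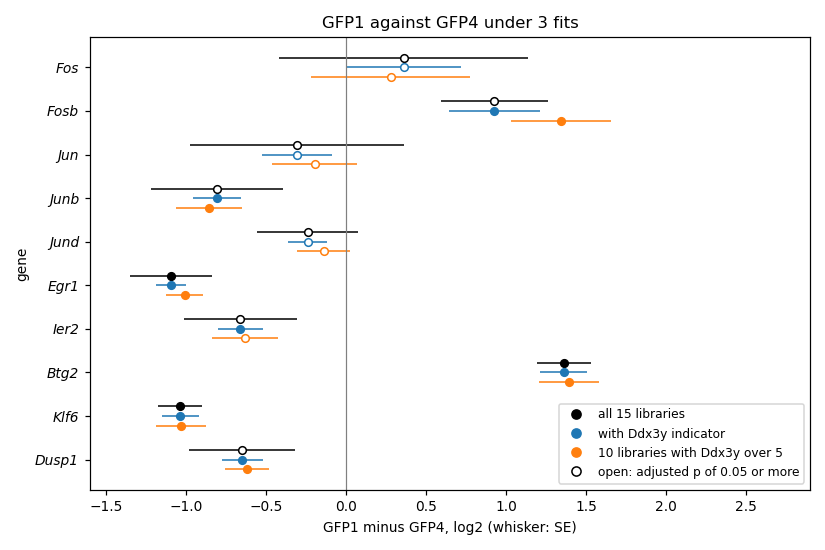
Log2 difference between GFP1 and GFP4 (x axis, whiskers SE) for the 10 genes (y axis) in the fit of 15 libraries (black), with the Ddx3y indicator (blue) and in the 10 libraries with Ddx3y over 5 (orange); filled points have a limma adjusted p under 0.05. Btg2, Egr1 and Klf6 are filled in all 3 fits, and Fos, Jun and Jund are open in all 3.

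Replicate III was set against replicate I with the group mean removed, which contrasts 16 with 12 weeks of doxycycline and 6.5 with 5 months of age. Each number has a single age and doxycycline time, and its 5 libraries, the bins and the undivided sort, may share mice. They are therefore not independent replicates of age or doxycycline time, and p-values here speak only of the spread among libraries. As labelled, all 10 members had a higher mean in replicate III. Only Jund was called, at 0.69 (SE 0.12, limma adjusted p = 0.0328), where 0.132% of all genes were higher and 0.1% lower. That call is fragile: leaving out a single library gave between 0 and 7 members called, and 9 of the 15 such fits lost Jund, those without GFP4 III, GFP3 I, GFP3 III, GFP2 II, GFP1 I, GFP1 III, Total I, Total II or Total III. Unadjusted limma p was under 0.05 for 8 of 10 members and for 3881 of all 27994 genes tested. The median difference was 0.63 over the members and -0.01 over all genes. Fos averaged 11.98 ± 0.16 in replicate III and 10.32 ± 0.44 in replicate I (SD, n = 5 each), a difference of 1.66 (SE 0.34, limma adjusted p = 0.113). Jun averaged 13.67 ± 0.14 in replicate III and 12.31 ± 0.64 in replicate I, a difference of 1.36 (SE 0.32, limma adjusted p = 0.145).

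Within replicate I the library labelled GFP4 replicate I stood apart: Jun was 13.41 there, against 11.78 to 12.22 in the other 4 replicate I libraries. Without that library 7 members were called higher in replicate III: Fos at 1.96 (limma adjusted p = 0.0141), Jun at 1.68, Junb at 1.04, Ier2 at 0.91, Dusp1 at 0.66, Egr1 at 0.65 and Jund. The share of all genes called higher was 1.02% in that fit, against 0.132% with all libraries. Without GFP4 replicate II 6 members were called, where 0.407% of all genes were higher. Without all GFP4 libraries 7 were called, Fos at 1.84 (limma adjusted p = 0.000113), where 0.757% of all genes were higher. In the fit with all libraries Klf6 was not called, at 0.04 (SE 0.10, limma adjusted p = 0.909). Age, doxycycline time and the Ddx3y split cannot be told apart in replicate III against replicate I outside GFP4.

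The heat shock gene Hspa1b set the replicate III libraries apart. Hspa1b, an inducible Hsp70 chaperone, lay between 8.99 and 9.81 in the replicate III libraries and between 6.94 and 8.21 in the other 10, and was higher in replicate III than in replicate I by 2.12 (SE 0.18, limma adjusted p = 1.2e-05). Per1, a clock gene that is also an early response gene, ran the other way, at 9.94 to 10.77 in replicate III and 10.98 to 12.03 elsewhere, a difference of -0.82 (SE 0.10, limma adjusted p = 0.00105). In the libraries numbered I or II, Hspa1b overlapped between those with little Ddx3y (6.94 to 8.21) and the rest (7.05 to 8.002). Fos did not overlap there (9.87 to 10.48 and 10.95 to 11.49). In replicate III Fos was above both sets, at 11.81 to 12.19, so it too set those libraries apart. Of 13 heat shock genes, 3 were higher and none lower in replicate III than in replicate I. The shares of all genes were 0.132% and 0.1%. Dnaja1, an Hsp70 co-chaperone, was higher by 0.33 (SE 0.06, limma adjusted p = 0.0404).

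Genes around this set were read from lists of related function. The lists were chosen with earlier results of these data known, so their counts beside those of all genes are descriptions. Of 14 other immediate early transcription factors, 2 were higher and 4 lower in GFP1 than in GFP4. Of all genes, 9.27% were higher and 10.3% lower in that comparison. Klf2, a quiescence factor of lymphocytes, was higher by 1.08 (SE 0.30, limma adjusted p = 0.0129) and the nuclear receptor Nr4a2 by 0.71 (SE 0.22, limma adjusted p = 0.0278), while Klf10 differed by -0.90 (SE 0.11, limma adjusted p = 5.34e-06) and the repressor Bhlhe40 by -0.89 (SE 0.16, limma adjusted p = 0.000383). Klf2 averaged 9.01 in GFP1 and 8.61 in Total, against 7.93 in GFP4, 7.97 in GFP3 and 7.76 in GFP2. As for Btg2, the groups with the higher means were those with more plasma cell, B cell and T and NK cell markers. The part of these cells in the Klf2 values was not tested. Of 14 partners of AP-1, 5 were lower and none higher, among them Maff at -1.22 (SE 0.21, limma adjusted p = 0.000227) and Batf2 at -0.88 (SE 0.19, limma adjusted p = 0.00203). The medians were -0.60 and -0.43, against -0.07 over all genes.

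Of 29 genes of feedback and RNA decay, 13 were lower in GFP1 and none higher, with a median of -0.53. Of all genes, 10.3% were lower and 9.27% higher in GFP1 than in GFP4. Dusp4, a phosphatase of MAP kinases like Dusp1, differed by -1.30 (SE 0.14, limma adjusted p = 1.1e-06), and the kinase Plk2 differed by -3.58 (SE 0.32, limma adjusted p = 6.62e-06). Of 21 upstream regulators, 2 were higher and 6 lower. Srf, serum response factor itself, was higher by 0.53 (SE 0.13, limma adjusted p = 0.00557). The Srf cofactor Mkl2 differed by -0.74 (SE 0.11, limma adjusted p = 8.11e-05) and Map2k1, the kinase that activates ERK, by -0.57 (SE 0.09, limma adjusted p = 0.000106). Of 13 heat shock genes, 4 were higher and 1 lower, with the mitochondrial chaperone Hspd1 at 0.47 (SE 0.09, limma adjusted p = 0.000429), Hsp90aa1 at 0.33 (SE 0.07, limma adjusted p = 0.00222) and Dnajb4 at -0.61 (SE 0.11, limma adjusted p = 0.000362). In replicate III against replicate I, the feedback genes Gadd45g at 0.94 (SE 0.14, limma adjusted p = 0.00669) and Socs3 at 0.76 (SE 0.13, limma adjusted p = 0.0245) were higher. These were 2 of the 29 and Per1 was the 1 lower, where 0.132% of all genes were higher and 0.1% lower.

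Likeness to Fos is given as a description, over libraries that share replicate sets and the Ddx3y split. After subtracting group means, Pearson's r with Fos over the 15 libraries was 0.97 for Jun, 0.96 for Ier2, 0.93 for Junb, 0.92 for Jund, 0.89 for Egr1, 0.81 for Dusp1, 0.71 for Btg2, 0.58 for Fosb and 0.42 for Klf6. The 5 nearest of the other genes of at least 10 ppm were Arf6 (0.96), Prr13 (0.96), Hist2h2aa1 (0.95), Rrp15 (0.95) and Grasp (0.95). Without subtracting group means, they were Hist2h2aa1 (0.91), Hist1h2ac (0.90), Slco3a1 (0.89), Tgfbi (0.87) and Ddx3y itself (0.86). Ier2 and Junb were the pair of members with the highest value after group means were subtracted (0.98).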

How the data were processed

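RNA of sorted mouse HSCs was amplified with SMART-Seq v4 and made into libraries with Nextera XT, per the labels' protocols, and the submitters' processing notes name kallisto 0.43.0 and GRCm38. The authors deposited log2 values, with genes in rows and libraries in columns. Sources used here do not give the unit before the logarithm, its offset or how transcripts were summed to genes. The values show one distribution in all 15 libraries (quantile normalization), and depth is unknown. Values were unlogged (base 2) and 1 was subtracted to obtain linear values for the filter (at least 1 in at least 3 libraries) and the ppm shares. One mean per group was fitted with limma 3.58.1 in R 4.3.3 (trend, robust moderation, residual df 10, no covariate), two-sided, with Benjamini-Hochberg adjustment at 0.05; replicate III against I used group and replicate number as factors (residual df 8). The fits were tested on simulated data. The members and gene lists were chosen with earlier results of these data known. From each related list up to 2 genes each way by smallest p were named, with the 5 genes most like Fos. One gene that this rule takes is not reported here. Alternatives left out each library, changed the normalization, filter, weights, pseudocount (0.1), block and libraries fitted. Those using Ddx3y, omitting a whole replicate number or omitting GFP4 were chosen after seeing the data. RefSeq GRCm38.p6 gave coordinates and promoters. The Ier2 and Egr1 promoters were not used here.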

Additional observations from a re-analysis of the deposited data

How the results depend on the processing

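Btg2 higher and Klf6 lower in GFP1 than in GFP4 held in every alternative run, and Egr1 lower in all but the fit without the replicate III libraries. The count of members higher in that comparison and in the trend over the bins became 2, with Fosb added, under quantile normalization without immunoglobulin genes, array weights, the replicate block, the Ddx3y indicator and the 10 libraries with Ddx3y over 5. The count lower became 5 with the indicator, 4 in the 10 libraries and 3 with the replicate block, in both comparisons. In GFP1 against GFP4, 10.1% of all genes were higher and 11.3% lower with the indicator, against 6.83% and 7.19% in the 10 libraries. The block gave 9.96% and 11.2%, and array weights 10.4% and 12%. In the trend the shares were 10.5% and 11.4%, 6.91% and 7.31%, 10.2% and 11.4%, and 10.7% and 12.1%, in that order. With the changed normalization 2695 of 27172 genes were higher, and 2759 in the trend. In GFP1 against GFP2 and in GFP1 against Total, the count lower became 1 (Egr1) with the replicate block, the indicator and the 10 libraries. The shares of all genes lower were 5.09%, 5.29% and 2.38% against GFP2, and 1.99%, 2.15% and 0.504% against Total. In GFP2 against GFP4 the count lower became 3 with the indicator, where 2.38% of all genes were lower. In GFP4 against Total the count higher became 3 with the indicator (5.87% of all genes) and 2 in the 10 libraries (2.93%). In replicate III against replicate I the count higher became 5 with array weights (0.514% of all genes), 7 without the GFP4 libraries (0.757%) and 0 without the GFP1 and Total libraries (0.0143%), against 1 and 0.132% as designed. Where the fit itself does not show it, the cause was not tested.

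Leaving out single libraries or whole replicate numbers gave 1 to 2 members higher and 1 to 2 lower in GFP1 against GFP4 and in the trend, 0 to 1 lower in GFP2 against GFP4 and in GFP1 against GFP2, 0 to 1 higher and 0 to 1 lower in GFP4 against Total, and 0 to 7 higher in replicate III against replicate I. Signs turned for uncalled differences alone: Fos from -0.226 to 0.838, Jun from -0.859 to 0.249 and Jund from -0.508 to 0.0525 in GFP1 against GFP4, and Klf6 from -0.0308 to 0.151 in replicate III against replicate I. Of 1002 member differences recomputed, 924 kept direction and side of the threshold, 53 gained a call, 15 lost one and 10 turned. These cover all 10 members in GFP1 against GFP4 and in replicate III against replicate I; in the other comparisons they cover Fosb, Egr1, Btg2 and Klf6, which were chosen after their values were seen. Of 798 further differences of the other 6 members there, none called in the design as fitted, 47 turned sign and 9 gained a call.

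Same-numbered libraries did not all deviate together: 21 of 30 pairs correlated over 0.1 and 4 under -0.1. Those 4 paired GFP4 replicate I with GFP2 (-0.409) and GFP4 replicate II with GFP1 (-0.289), GFP2 (-0.181) and GFP3 (-0.101). Pairs without a GFP4 library lay between 0.0337 and 0.587. The numbers as labelled were not taken as pairs, so the fit as designed left variation by replicate number in its error. With the replicate block, Fosb was called in GFP1 against GFP4 (limma adjusted p = 0.0105), as was Ier2 (0.0379), and Egr1 was called lower in GFP1 than in GFP2 (0.0173) and in Total (0.0405). Of 15 libraries, 13 matched their own number best. Fold changes of low values are understated, and with 3 libraries a group and depth unknown, no floor can be given for Fosb, the lowest member.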
